A study of Mus musculus with 2 samples.

Results

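The circadian clock genes described here are Arntl, Clock, Npas2, Per1, Per2, Per3, Cry1, Nr1d1, Nr1d2 and Dbp, 10 genes chosen by symbol from the 19465 genes counted in mouse heart tissue. All 10 had a single entry in the gene table, and all 10 passed the minimum of 20 unique molecular identifiers (UMIs) over both sections that 15236 genes passed. The study placed formalin-fixed, paraffin-embedded heart sections of 5 µm on the Visium CytAssist array, where probes for each gene are captured in barcoded spots and counted by UMI, so that a value belongs to a small region holding several cells and not to a cell. There was 1 section from a control mouse (α-MHC-MerCreMer+/-) and 1 from a TOP2B transgenic mouse, whose genotype was α-MHC-MerCreMer+/-TOP2B LSL/-. Both mice carried the Cre recombinase driven by the α-MHC promoter, which is active in cardiomyocytes and releases recombination after tamoxifen, and both received 1 intraperitoneal dose of 80 mg/kg of tamoxifen. The transgenic mouse also carried human TOP2B at the Rosa26 locus behind a loxP-flanked stop, under the CAG promoter. The study's methods describe the acute model as 6-week-old transgenic mice with siblings of the same age as controls. The animals lived on a regular light and dark cycle, but the labels state neither the hour of harvest nor the interval from tamoxifen to harvest. With 1 animal in each group, effects of genotype, of hour of harvest and of the individual animal cannot be told apart, no test between the groups was possible, and every interval below covers counting error only.

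The molecular clock is a feedback loop of transcription that runs in nearly every cell, cardiomyocytes included. BMAL1, the protein encoded by Arntl, pairs with CLOCK or NPAS2 and binds E-box elements, where the pair activates Per, Cry, Nr1d1, Nr1d2 and Dbp. The PER and CRY proteins then repress that pair, while the REV-ERB proteins encoded by Nr1d1 and Nr1d2 and the activating ROR proteins compete for ROR elements (ROREs) in Arntl, Npas2, Clock, Cry1 and Nfil3. DBP, with its relatives TEF and HLF, activates D-box elements, which the repressor NFIL3 also binds. In most tissues the transcripts of Arntl and of Dbp, Nr1d1 and the Per genes therefore peak at opposite times of day, and the balance between them in 1 sample depends on the hour at which it was taken.

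Promoter sequences of 9 of the 10 genes were found in the RefSeq table of 250 bases before each gene's start, on build GRCm38.p6, and Per2 was not matched. On both strands, 3 motifs were searched: the E-box CACGTG, which 6.02% of all 32851 promoters hold, the D-box TTATGTAA or TTACGTAA, which 0.931% hold, and the RORE core TAGGTCA or TGGGTCA, which 5.38% hold. Cry1 and Per1 each held 1 E-box, Per3 held 2 D-boxes, and the RORE core was in 0 of the 9 genes. The 9 genes had 13 promoters between them, whereas the shares above are of promoters and not of genes. Another Per1 promoter, at chr11:69099902-69100151, held 0 of these motifs. The 3 promoters with a match are printed, to show where letters of these motifs occur in the clock genes, each from 250 to 51 bases before the start, 5′ to 3′ on the gene's strand, with the motifs in capitals. That of Per1 lies at chr11:69098699-69098898 on the plus strand with the E-box starting 166 bases before the start, that of Cry1 at chr10:85185105-85185304 on the minus strand with the E-box at 60 bases, and that of Per3 at chr4:151044716-151044915 on the minus strand with the D-boxes at 205 and 158 bases.
Per1: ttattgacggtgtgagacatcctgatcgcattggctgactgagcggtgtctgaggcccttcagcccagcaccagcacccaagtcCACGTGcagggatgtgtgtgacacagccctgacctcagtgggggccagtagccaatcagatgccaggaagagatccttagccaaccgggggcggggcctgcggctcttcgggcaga
Cry1: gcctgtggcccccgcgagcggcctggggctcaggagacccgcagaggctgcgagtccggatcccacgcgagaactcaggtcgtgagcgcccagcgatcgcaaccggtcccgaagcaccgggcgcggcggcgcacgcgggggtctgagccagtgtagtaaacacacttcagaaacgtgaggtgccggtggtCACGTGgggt
Per3: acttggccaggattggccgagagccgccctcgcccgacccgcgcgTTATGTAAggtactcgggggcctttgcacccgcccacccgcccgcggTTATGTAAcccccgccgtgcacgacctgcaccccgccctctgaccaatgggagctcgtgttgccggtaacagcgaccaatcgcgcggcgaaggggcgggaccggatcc
These matches are letters in a window and not measured binding. No match in the window says only that these letters do not occur in it.

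The control section had 1256 spots with 14376300 UMIs and the transgenic section 924 spots with 12953389 UMIs, with medians of 11335 and 14531 UMIs per spot. Levels are given as UMIs per 1000000 UMIs of the section (CPM), and the 4 quadrants of each section, split at the median row and column of its spots, show the spread inside it. Cardiomyocyte markers were present throughout, with all 10 of the list above 0 in both sections. Their summed level was 88289 CPM in control and 42716 CPM in transgenic tissue, with no overlap between quadrants. Of these 10, 8 had a log2 ratio of transgenic over control below 0. A level 2-fold or more lower was seen in 5, where 5.61% of the 15236 genes were that low. Tnni3 was the lowest with a log2 ratio of -1.92. Tnnt2, a thin filament gene, was the highest of the 10, at 13091 and 14721 CPM. The 10 fibroblast markers summed to 2085 and 6790 CPM and the 10 macrophage markers to 330 and 645 CPM. Of these, 7 and 4 were 2-fold or more higher in the transgenic section, where 13.7% of the 15236 genes were. The 6 erythroid genes summed to 2146 and 20437 CPM, all 6 of them 2-fold or more higher. The 9 endothelial markers summed to 1856 and 1882 CPM and the 10 mural markers to 1285 and 1269 CPM. These near-equal sums hide genes that moved in both directions. Endothelial log2 ratios ran from -0.92 for Kdr to 2.48 for Vwf, with 1 gene 2-fold or more higher and 0 lower. Mural log2 ratios ran from -1.58 for Abcc9 to 0.63 for Tagln, with 0 genes 2-fold or more higher and 2 lower. In summed tissue of this kind, fewer cells of a type and less RNA per cell cannot be told apart, and the part of these shifts in the clock values was not tested beyond the subsets of spots given below. The mouse Top2b feature was at 106 and 102 CPM, a log2 ratio of -0.07 (-0.17 to 0.04). Whether its probes take up the human transgene is not given in the sources used here.

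Arntl, Npas2 and Dbp differed most between the 2 sections among the clock genes. Arntl, Npas2 and Clock, which encode the activators of the loop, were higher in the transgenic section, by 7.43-fold, 4.29-fold and 1.99-fold. Dbp, Per3, Nr1d2 and Nr1d1 were lower, by 4.57-fold, 2.13-fold, 2.00-fold and 1.63-fold. Per1 was 1.55-fold higher, and the intervals of Per2 and Cry1 included no difference. Of the 10 genes, 2 were 2-fold or more higher, Arntl and Npas2, where 13.7% of the 15236 genes were. Another 2 of them were 2-fold or more lower, Per3 and Dbp, where 5.61% of all genes were. Clock and Nr1d2 lay just short of 2-fold. In 4 of the 10, Arntl, Clock, Npas2 and Per1, every transgenic quadrant lay above every control quadrant, against 30.3% of all genes, and in 4, Per3, Nr1d1, Nr1d2 and Dbp, every transgenic quadrant lay below, against 13.1%. The median log2 ratio of all genes was 0.20.

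**Figure D1:**
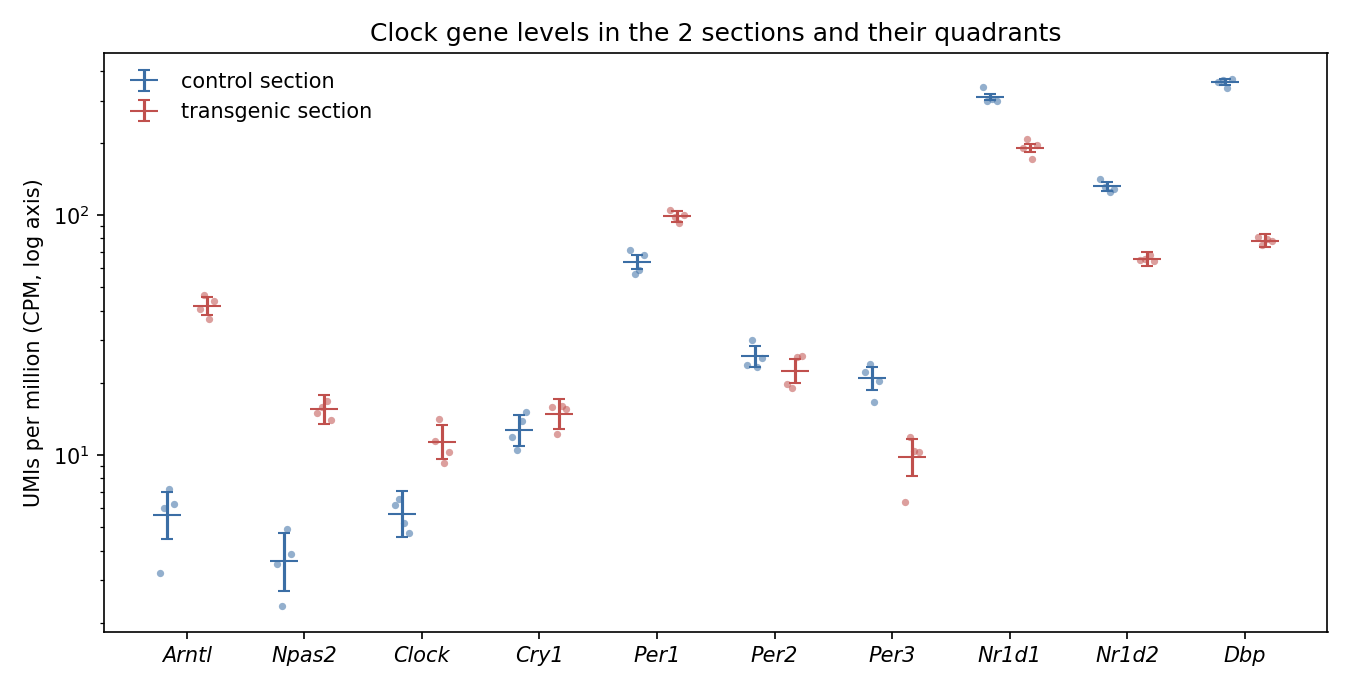
Level of each clock gene in the control (blue) and transgenic (red) section, in CPM on a log axis. Wide bars are whole sections with exact 95% Poisson intervals, and points are the 4 quadrants of each section. Arntl stood at 5.63 and 41.8 CPM and Dbp at 358 and 78.2 CPM, while the quadrants of Per2 and Cry1 overlapped.

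Arntl (ENSMUSG00000055116), whose product BMAL1 is the partner that the activating pair cannot do without, had 81 UMIs in the control and 542 in the transgenic section. That is 5.63 CPM (4.47 to 7.00) and 41.8 CPM (38.4 to 45.5), a log2 ratio of 2.89 (2.55 to 3.25). Control quadrants ran from 3.23 to 7.20 CPM and transgenic quadrants from 36.8 to 46.2 CPM, so the lowest transgenic quadrant was far above the highest control quadrant. The gene ranked 188th from the top of the 15236 genes. A UMI of Arntl was found in 6.05% of control and 42.7% of transgenic spots. After every spot was thinned to 8134 UMIs, which left out 140 and 78 shallower spots, the shares were 4.34% and 28.7%.

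Npas2 (ENSMUSG00000026077), which can take the place of CLOCK in the pair, had 52 and 201 UMIs. Its level of 3.62 CPM (2.70 to 4.74) in control tissue compared with 15.5 CPM (13.4 to 17.8) in transgenic tissue, which gave a log2 ratio of 2.10 (1.65 to 2.57). The quadrants ran from 2.36 to 4.90 and from 14.0 to 16.9 CPM and did not overlap. Clock (ENSMUSG00000029238) had 82 and 147 UMIs, or 5.70 and 11.3 CPM, with a log2 ratio of 0.99 (0.59 to 1.40). Its quadrants, 4.74 to 6.55 and 9.27 to 14.1 CPM, were also apart. The share of spots with a UMI, thinned to the same depth, was 2.97% and 11.9% for Npas2 and 4.62% and 8.88% for Clock. The 3 activator genes thus lay on the same side, with Arntl furthest from 0 and Clock nearest.

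Dbp (ENSMUSG00000059824), a direct target of the activating pair and itself a D-box activator, had 5143 UMIs in control and 1013 in transgenic tissue. The levels were 358 CPM (348 to 368) and 78.2 CPM (73.5 to 83.2), a log2 ratio of -2.19 (-2.29 to -2.10). It ranked 81st from the bottom of all genes tested. The quadrants of each section were close to each other, 338 to 368 CPM against 75.0 to 81.0 CPM, and the 2 ranges were far apart. In the control section 95.1% of spots held a Dbp UMI and in the transgenic section 61.8%, or 92.8% and 46.0% after thinning.

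Nr1d1 (ENSMUSG00000020889) and Nr1d2 (ENSMUSG00000021775), which encode REV-ERBα and REV-ERBβ, the repressors of Arntl and other RORE genes, were both lower in the transgenic section. Nr1d1 was at 311 CPM (302 to 321) and 190 CPM (183 to 198), a log2 ratio of -0.71 (-0.78 to -0.64). Nr1d2 was at 131 CPM (126 to 138) and 65.9 CPM (61.5 to 70.4), a log2 ratio of -0.997 (-1.12 to -0.88). The highest transgenic quadrant, 207 CPM of Nr1d1 and 68.3 CPM of Nr1d2, was below the lowest control quadrant, 297 and 125 CPM. Nr1d1 still gave a UMI in 95.9% of control and 86.7% of transgenic spots, and Nr1d2 in 75.0% and 57.9%.

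The Per genes, which encode the repressor partners of the CRY proteins, did not move as a group. Per3 (ENSMUSG00000028957) was lower, with 300 and 127 UMIs, or 20.9 CPM (18.6 to 23.4) and 9.80 CPM (8.17 to 11.7), and a log2 ratio of -1.09 (-1.40 to -0.79). Its quadrants ran from 16.7 to 23.8 and from 6.36 to 11.9 CPM. Per2 (ENSMUSG00000055866) was at 25.7 CPM (23.2 to 28.5) and 22.4 CPM (19.9 to 25.1), a log2 ratio of -0.20 (-0.43 to 0.02), with overlapping quadrants. Per1 (ENSMUSG00000020893), known to respond rapidly to glucocorticoids and other acute signals as well as to the clock, was higher, at 63.9 CPM (59.8 to 68.1) and 98.8 CPM (93.5 to 104.4). Its log2 ratio was 0.63 (0.51 to 0.75), and its quadrants, 56.8 to 71.7 and 93.0 to 104.9 CPM, were apart. Cry1 (ENSMUSG00000020038), a repressor whose transcript peaks between the other groups because E-boxes, D-boxes and ROREs all act on it, was at 12.7 CPM (11.0 to 14.7) and 14.8 CPM (12.8 to 17.1). The log2 ratio of 0.22 (-0.08 to 0.52) was near the median of all genes, and the quadrants overlapped.

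Setting the change of 1 gene against that of another within the same sections removes the scaling between them. The number of Arntl UMIs for each Dbp UMI was 0.0157 in control tissue, with quadrants between 0.00899 and 0.0213. For transgenic tissue the number was 0.535, with quadrants between 0.465 and 0.616. These ratios count probes of different genes and give no relative abundance, but their change between the sections, 33.9-fold, can be read, a log2 change of 5.09 (4.73 to 5.45). Against Nr1d2 the log2 change of Arntl was 3.89 (3.53 to 4.26), against Nr1d1 3.60 (3.25 to 3.96) and against Per3 3.98 (3.52 to 4.45). It was smaller against Per2, 3.09 (2.68 to 3.51), and against Per1, 2.26 (1.90 to 2.64). All 6 intervals lay above 0, so Arntl was higher relative to each gene of the opposite phase. The same Arntl counts enter each of these changes, and Arntl had the highest log2 ratio of the 10 clock genes. Their sign was thus fixed in advance, and only their sizes can be read. Against the partners of Arntl the change was 1.90 (1.36 to 2.44) for Clock and 0.79 (0.21 to 1.37) for Npas2, and against Cry1 it was 2.67 (2.21 to 3.14).

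Averaged over genes, the log2 ratios of the 3 activators had a mean of 2.00 and those of the 6 genes of the opposite phase a mean of -0.76. The difference, a phase contrast, was 2.76 (2.52 to 2.99). Its interval holds the genes fixed and does not measure how alike they moved. The 6 genes of the opposite phase ran from -2.19 for Dbp to 0.63 for Per1. In the 16 pairings of a transgenic with a control quadrant the phase contrast ran from 2.27 to 3.21, and the Arntl against Dbp change from 4.45 to 6.10. These pairings reuse pieces of the same 2 sections and are not replicates, so they show only the spread inside each section. The phase pattern differed between the 2 sections, with Per1 as the single gene of the opposite phase whose interval lay above 0.

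**Figure D2:**
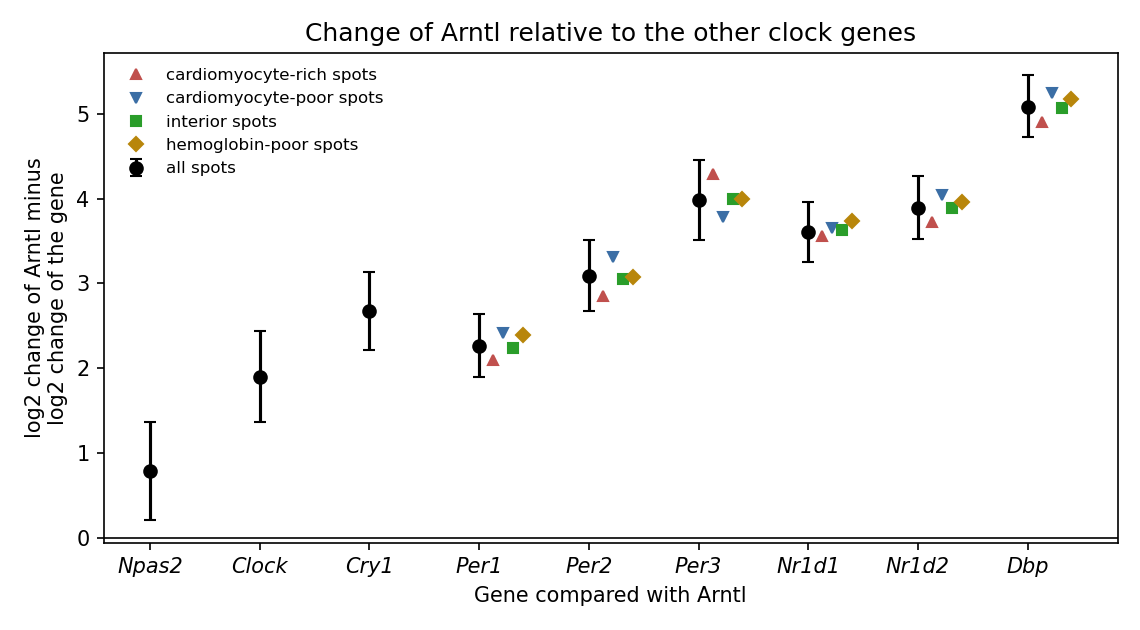
Log2 change of Arntl between the sections minus the log2 change of each other clock gene, over all spots with exact 95% intervals (black) and, for the 6 genes of the opposite phase, in subsets of spots (coloured). The values lie above 0 for all 9 genes, from 0.79 against Npas2 to 5.09 against Dbp. Arntl had the highest log2 ratio of the 10 clock genes, so this sign was fixed in advance.

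The other genes of the loop fell into the same pattern in part. Of 10 listed, 9 were counted and Ciart was not analysed here. Nfil3, the D-box repressor that REV-ERB holds down, was at 1.04 and 3.24 CPM from 15 and 42 UMIs, a log2 ratio of 1.64 (0.76 to 2.59). Arntl2, a paralog of Arntl, had 22 and 44 UMIs and a log2 ratio of 1.15 (0.38 to 1.96). The D-box activators lay on the side of Dbp. Hlf was at 47.7 and 19.6 CPM, a log2 ratio of -1.28 (-1.50 to -1.07), and Tef at 233 and 135 CPM, a log2 ratio of -0.78 (-0.87 to -0.70). Bhlhe40, an E-box repressor, was lower with a log2 ratio of -0.35 (-0.44 to -0.25). The intervals of Cry2, Rora, Rorb and Bhlhe41 included 0, with log2 ratios of 0.04, 0.16, 0.27 and -0.18. With 2 genes 2-fold or more higher (13.7% of all genes) and 1 lower (5.61%), the median of these 9 was 0.04. Grouped by the elements known to drive them, the 5 RORE genes (Arntl, Clock, Npas2, Cry1 and Nfil3) had a median log2 ratio of 1.64, with 5 above 0. The 11 counted E-box and D-box genes had a median of -0.71, with 9 below 0. These groups repeat the 10 clock genes described above. Only Nfil3 is added to the RORE genes, and Per1, Per2, Per3, Nr1d1, Nr1d2 and Dbp are among the others. The medians are thus no separate evidence. Among the repeated genes, the intervals of Cry1 and Per2 included 0. The median of all genes was itself above 0, at 0.20, and Cry1 at 0.22 lay near it. For scale, 39.9% of all genes lay below the 0.04 of Cry2.

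**Figure D3:**
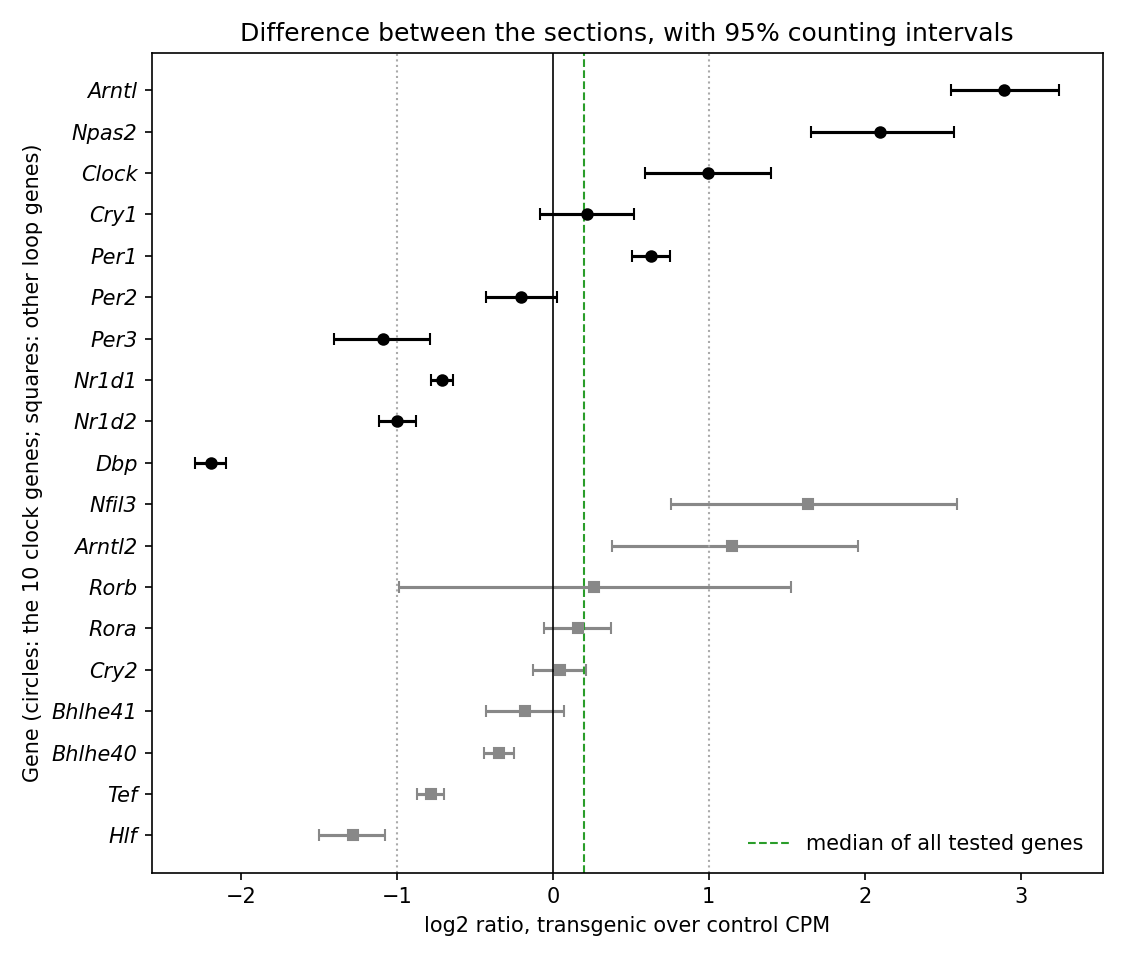
Log2 ratio of the transgenic over the control section for the 10 clock genes (black circles) and 9 other genes of the loop (grey squares), with exact 95% counting intervals. The dashed line is the median of all genes, 0.20, and dotted lines mark 2-fold. Arntl lies at 2.89 and Dbp at -2.19, the ends of the range.

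Inside each section the clock genes were then compared from place to place. Moran's I, a deposited score that is near 0 when neighbouring spots are no more alike than distant ones, lay between -0.00 and 0.03 for the 10 genes of the control mouse. For the transgenic mouse the score was 0.16 for Nr1d1, 0.11 for Dbp, 0.07 for Per1 and at most 0.05 for the others. The score was higher in the transgenic section for other genes too. Over the 1962 genes with 2000 to 10000 UMIs, the range that holds Nr1d1, Nr1d2, Dbp and Per1, its median was 0.008 in control and 0.089 in transgenic tissue. The 50% of spots richest in 9 cardiomyocyte genes were compared with the poorer 50%. In the control section the log2 ratio of rich over poor spots was 0.05 (-0.61 to 0.72) for Arntl and -0.05 (-0.13 to 0.03) for Dbp, and the intervals of Per2, -0.31 (-0.61 to -0.00), and Nr1d1, -0.09 (-0.18 to -0.01), lay just below 0. In the transgenic section Arntl was lower in the richer spots, -0.30 (-0.55 to -0.05), as were Per3, -0.93 (-1.49 to -0.38), and Nr1d1, -0.35 (-0.46 to -0.23). Dbp did not differ beyond counting error there, -0.07 (-0.25 to 0.11). Between edge spots and interior spots, which have all 6 neighbours over tissue, the interval excluded 0 for 1 of the 10 genes in 1 section, Cry1 in the transgenic section at -0.66 (-1.22 to -0.14).

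**Figure D4:**
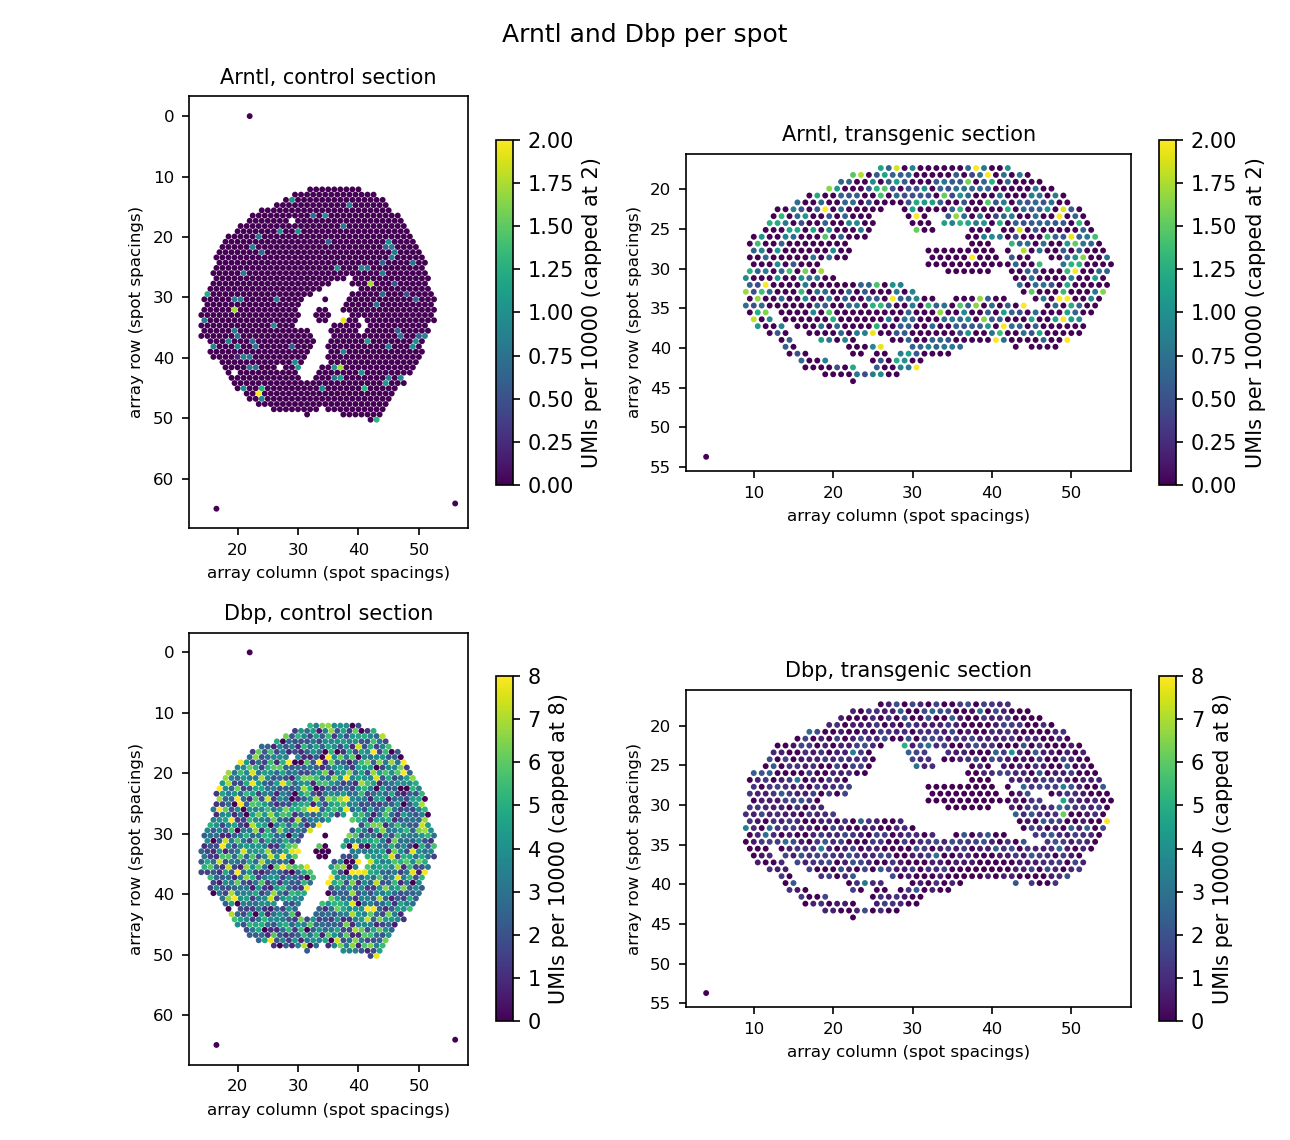
UMIs of Arntl (top) and Dbp (bottom) per 10000 UMIs of the spot, drawn at each spot's place on the array, in the control (left) and transgenic (right) section. Axes are in spot spacings, and colours are capped at 2 for Arntl and 8 for Dbp. Arntl was found in 6.05% of control and 42.7% of transgenic spots, spread over each section, and Dbp in 95.1% and 61.8%.

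Arntl and Dbp differed in the same direction in spots of each make-up. In the cardiomyocyte-rich spots, Arntl was at 5.73 CPM in control and 37.5 CPM in transgenic tissue, and in the cardiomyocyte-poor spots at 5.53 and 46.2 CPM. Dbp was at 351 and 76.4 CPM in the rich and at 364 and 80.0 CPM in the poor spots. In the 50% of spots with the lowest share of hemoglobin UMIs, where that share was 0.0663% and 0.370%, Arntl was at 5.49 and 45.0 CPM and Dbp at 354 and 80.2 CPM. The 10% of transgenic spots with the highest hemoglobin share were a subset chosen after the maps were seen. Hemoglobin made up 23.2% of all UMIs in these spots. Arntl was at 31.2 CPM from 24 UMIs and Dbp at 62.5 CPM from 48 UMIs there. All other transgenic spots, with a hemoglobin share of 0.677%, were at 42.5 and 79.2 CPM. Hemoglobin UMIs count in the CPM total, so a larger share of them lowers the CPM of every other gene. These spots and the others thus cannot be compared by CPM alone. In the 10% of control spots with the highest hemoglobin share, 1.16%, Arntl was at 2.77 CPM from 3 UMIs and Dbp at 390 CPM from 423 UMIs. Over 5 subsets of spots, the change of Arntl against Dbp ran from 4.91 to 5.25 and that against Nr1d1 from 3.56 to 3.74. Several of these subsets share spots. The subset with at least 1000 UMIs kept 1249 of 1256 control and 921 of 924 transgenic spots. A narrow range was thus partly fixed in advance. Per3 moved most with the spots, with a log2 ratio of -1.60 in the cardiomyocyte-rich and -0.72 in the cardiomyocyte-poor spots. Nr1d1 was at -0.85 and -0.59 there, both outside its interval over all spots, -0.78 to -0.64. Arntl moved the same way, 2.71 and 3.06, so its change against Nr1d1 does not show this. The rich spots of the transgenic section still held a lower share of the ranking genes, 4.62%, than the poor spots of the control section, 6.63%.

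Transcripts for proteins that modify the clock proteins were counted as well. The 21 listed regulators (kinases, ubiquitin ligases, deacetylases and cofactors) had a median log2 ratio of 0.21, close to that of all genes, with 0 of 21 2-fold or more higher (13.7% of all genes) and 2 lower (5.61% of all genes). The lowest was Usp2, a deubiquitinase whose gene is itself rhythmic, at 153 and 44.6 CPM, a log2 ratio of -1.78 (-1.91 to -1.65). Nampt, a rhythmic gene for an enzyme of NAD synthesis, was at 64.9 and 30.3 CPM, -1.10 (-1.27 to -0.93). The highest was Gsk3b, a kinase of the clock proteins, at 0.52 (0.42 to 0.62). Clock outputs in heart or other tissues were listed as 12 genes. Of these, 3 were 2-fold or more lower (5.61% of all genes) and 0 of 12 higher (13.7%), with a median log2 ratio of -0.53. Like the other lists, this list was chosen with earlier results of these data known, so the count is no test of clock outputs. It holds Ucp3, the lowest of the 15236 genes, and Kcnip2, ranked 4th from the bottom. The 3 were Ucp3, a mitochondrial carrier, at 99.2 and 1.85 CPM, Kcnip2, a subunit of the transient outward potassium channel, at 209 and 15.8 CPM, and Dgat2, an enzyme of triglyceride synthesis, at 353 and 105 CPM. The highest of them was Pik3r1, at 0.97 (0.87 to 1.06).

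Targets of signals that can reset or bypass the clock were also counted. Of 11 glucocorticoid targets, 6 were 2-fold or more higher in the transgenic section (13.7% of all genes) and 0 of 11 lower (5.61%). Their median log2 ratio was 1.12. The highest, Cdkn1a, is also a p53 target and stood at 50.5 and 587 CPM, a log2 ratio of 3.54 (3.43 to 3.65). The lowest was Klf9, a clock output as well as a glucocorticoid target, at 313 and 223 CPM, -0.49 (-0.55 to -0.42). Of 8 temperature-responsive genes, 6 were counted, with 3 of them 2-fold or more higher (13.7% of all genes). Their median was 1.06, and 0.52 with at least 200 UMIs, where Hspa1a drops out. The latter is the value of Cirbp, 0.52 (0.43 to 0.60), a cold-inducible gene pooled here with heat shock genes. The median of this mixed list thus gives no direction of temperature. Hspa1b, an inducible chaperone, was the highest at 2.50 and 17.6 CPM, 2.81 (2.30 to 3.36), and Hsph1 the lowest at -0.87 (-1.06 to -0.68). Many of these genes also respond to stress of other kinds, and their part in the levels of Per1 or of the other clock genes was not tested.

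**Figure D5:**
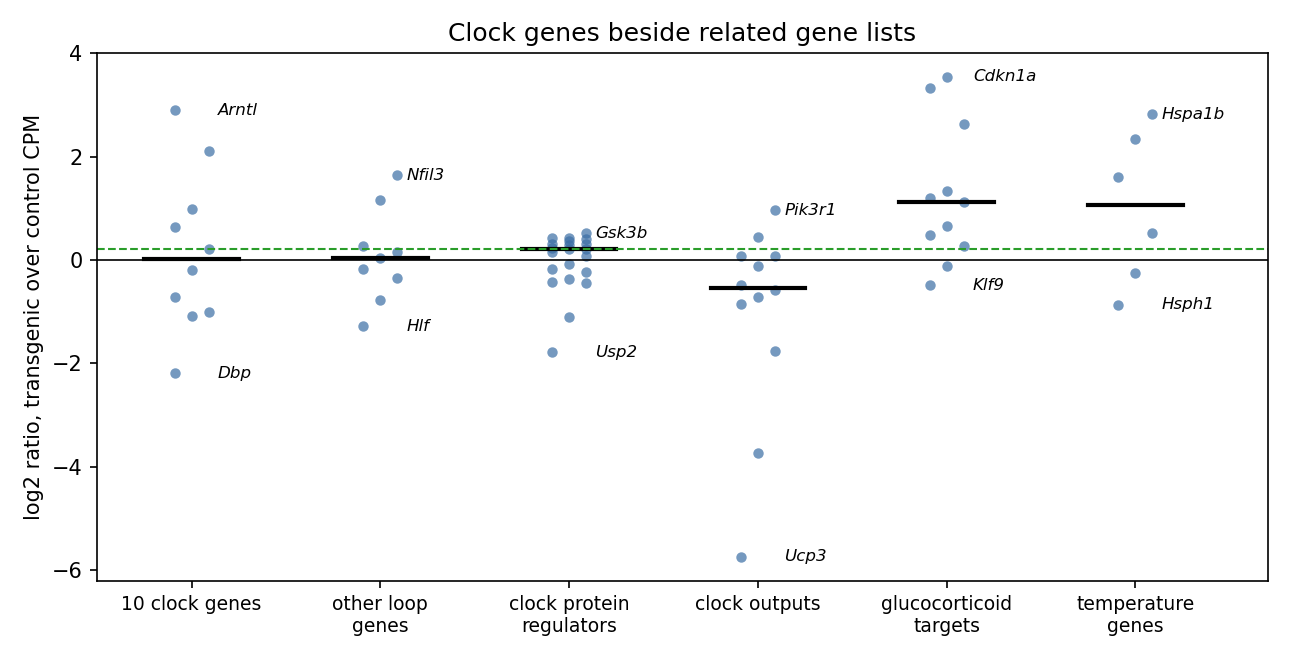
Log2 ratio of the transgenic over the control section for the 10 clock genes and 5 related lists, 1 point per gene, with the list's median as a black bar, the median of all genes (0.20) as a dashed line and the lowest and highest gene named. The medians run from -0.53 for clock outputs to 1.12 for glucocorticoid targets, and that of the 10 clock genes is 0.01 because 5 lie above and 5 below 0.

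The genes most like Arntl and Dbp over the 8 quadrants were found by Pearson's correlation of log2(CPM + 1) among the 9320 genes with at least 200 UMIs. For Arntl they were Eprs, F11r and Acbd5, with r from 0.995 to 0.996. For Dbp they were Znrf1, Hk2 and Gpcpd1, with r of 0.999. The quadrants come from 2 sections, so any gene that separates the sections scores high, and 1151 genes had an r over 0.95 with Arntl and 708 with Dbp.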

How the data were processed

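Visium CytAssist data of 2 mouse heart sections, 1 per genotype, were used. The values are raw UMI counts per gene and spot as deposited by the authors, made with Space Ranger 2.0.0 per the file headers. The submitters' processing notes name bcl2fastq, Space Ranger, GRCm39 and mm39, and the probe set is not given in the sources used here. Moran's I is a score deposited by the authors for each section and was used as given. Spot positions set the quadrants, edges and maps. Its p values, also from the authors, were left out.

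For each section, the UMIs of a gene were added up across its spots and divided by the section's total. A UMI is a counted probe molecule, so levels of different genes were not compared. Ratios carry exact conditional binomial 95% intervals, levels exact Poisson intervals and Arntl contrasts exact conditional odds ratio intervals. The phase contrast carries a 95% interval by a normal approximation from the counts of its genes. A count of 3, taken as the detection floor, comes to 0.209 CPM for the control and 0.232 CPM for the transgenic library. The sections share 725 spot barcodes, which mark array positions and not cells. No p value was computed, and the study's test over spots was not repeated, since spots of 1 section are not replicates.

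The 10 genes and all gene lists were chosen with earlier results of these data known, and 1 listed gene is not reported here. Named genes are the 10 clock genes, the other loop genes, clock outputs past 2-fold, the highest and lowest gene of each list and the 3 genes most correlated with Arntl and with Dbp. Nampt, Tnnt2, Cirbp and Top2b were named after their values were seen. In R 4.3.3, TMM factors from edgeR 4.0.16 and size factors from DESeq2 1.42.0 were tried as other scalings. Further alternatives were totals leaving out the 50 genes with the most UMIs, 1 CPM added, the mean over spots of UMIs per 10000, 5 subsets of spots, a 1.5-fold threshold and minimums of 0 or 200 UMIs. On simulated libraries of the same sizes, the 95% interval held the true ratio in 94.2% of 189 changed genes, and that of the Arntl against Dbp change in 96.5% and of the phase contrast in 93.5% of 200 draws. The simulated counts were Poisson draws, so this checks how the intervals are computed. It says nothing about spread over tissue or between animals. Python 3.11.15, numpy 2.4.6, scipy 1.17.1, pandas 2.3.3 and matplotlib 3.10.9 were used.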

Additional observations from a re-analysis of the deposited data

How the results depend on the processing

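Per2 and Cry1 had no direction beyond counting error to keep, and a scaling factor moves all genes alike, so it can reverse only genes near 0. With these limits, over 10 alternatives of scaling and of the spots used, the log2 ratio of each of the 10 clock genes kept its sign. It ran from 2.69 to 3.06 for Arntl, 1.84 to 2.25 for Npas2, 0.84 to 1.12 for Clock, 0.47 to 0.66 for Per1, 0.06 to 0.42 for Cry1, -0.36 to -0.04 for Per2, -1.60 to -0.72 for Per3, -0.87 to -0.59 for Nr1d1, -1.15 to -0.92 for Nr1d2 and -2.35 to -2.14 for Dbp. TMM factors moved the median of all genes by -0.16 and DESeq2 size factors by -0.15, and Dbp came to -2.35 and -2.34 with them. The DESeq2 factors were 1.000 in both sections, so that setting compares unscaled sums. The TMM and DESeq2 settings thus nearly coincide, though they count as separate alternatives among the 10. At a 1.5-fold threshold, 4 of the 10 genes were higher and 4 lower. The share of all genes was counted only at 2-fold, in the main scaling and over all spots. Counts at 1.5-fold and in the settings below have no such share beside them and describe the 10 genes only. The genes 2-fold or more higher, 2 in the report, were 3 with Clock in the cardiomyocyte-rich, interior and hemoglobin-poor spots. Those 2-fold or more lower, also 2, were 3 with Nr1d2 under TMM and DESeq2 factors, without the 50 most abundant genes, by the mean over spots and in the cardiomyocyte-rich spots, and 1, without Per3, in the cardiomyocyte-poor and in the hemoglobin-poor spots. The phase contrast was 2.21 with the longer RORE and E-box and D-box lists, which hold all genes of the main contrast. The median of the other loop genes turned to -0.26 with at least 200 UMIs, which leaves out Nfil3, Arntl2 and Rorb. Under the other scalings and subsets it lay between -0.13 and 0.06. It was below 0 with TMM and DESeq2 factors, without the 50 most abundant genes, by the mean over spots and in the cardiomyocyte-poor spots. Nfil3, with 15 control UMIs, and Rorb, with 12, are limited by depth. No paired analysis was possible because each group has 1 section. The spread between animals is unknown, and the cause of the differences was not tested.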
